A study of Mus musculus with 6 samples.

Results

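The genes described here encode the proteins of the mitochondrial ribosome. They were taken by symbol, as the genes named Mrps or Mrpl followed by a number and at most 1 letter that had counts in all 6 libraries. The rule found 75 genes of 19594 with counts, 29 named for the small subunit (Mrps) and 46 for the large subunit (Mrpl). The study sequenced liver RNA selected for its 5′ cap, from C57BL6 males at an age of 2 months, and compared 3 wild type animals with 3 animals labelled SHP -/-. SHP is an orphan nuclear receptor, encoded by Nr0b2, that represses other transcription factors. The labels name no treatment in either group and do not describe the knockout allele or whether the wild type mice were littermates. Libraries were barcoded and shared lanes, and the labels do not say which shared one, so effects of lane and of genotype cannot be told apart.

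The mitochondrial ribosome, or mitoribosome, translates the few mRNAs of mitochondrial DNA, all of which encode subunits of the respiratory chain and ATP synthase. Its rRNAs are encoded in mitochondrial DNA, while its proteins are encoded in the nucleus, made in the cytosol and imported. The small subunit binds mRNA and holds the decoding centre, and the large subunit forms peptide bonds and is anchored to the inner membrane. Liver cells are rich in mitochondria. Some of the proteins have counterparts in bacterial ribosomes, and others were gained in the mitochondrial lineage.

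Upstream sequences of 5 members that passed the test described below are shown first, because they hold a motif searched for or lie between a pair of genes that changed together. They come from RefSeq on GRCm38.p6, a later build than the mm9 of the counts. Each run is the bases just before the annotated start, written 5′ to 3′ on the gene's own strand and ended where the span of the next gene begins. Where another gene's span covers the motif, only 30 bases around a motif are given. Capitals mark motif matches. The Mrps12 run (chr7:28741822-28741956, minus strand) is the whole stretch between Mrps12 and the divergent gene Sars2, and the Mrpl50 run (chr4:49521084-49521175, minus strand) is the whole stretch between Mrpl50 and Zfp189. The Mrpl32 run (chr13:14613038-14613217, minus strand) holds an NRF1 motif, the Mrps18c run (chr5:100798588-100798617, plus strand) holds an E-box followed directly by an ETS motif, and the Mrpl2 run (chr17:46646078-46646107, plus strand) holds an E-box.
Mrps12: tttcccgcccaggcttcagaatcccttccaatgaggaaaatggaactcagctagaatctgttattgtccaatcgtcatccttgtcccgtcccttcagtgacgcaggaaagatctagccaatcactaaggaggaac
Mrpl50: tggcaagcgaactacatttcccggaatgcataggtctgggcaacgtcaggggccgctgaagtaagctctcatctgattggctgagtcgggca
Mrpl32: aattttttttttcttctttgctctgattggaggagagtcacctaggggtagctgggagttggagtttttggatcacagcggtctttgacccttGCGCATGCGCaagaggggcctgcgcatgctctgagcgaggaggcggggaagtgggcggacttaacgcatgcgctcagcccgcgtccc
Mrps18c: ccccgggtCACGTGACTTCCGGcccgggaa
Mrpl2: actgccgcccgtCACGTGacccgagcaacc

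Totals over genes ran from 4494353 to 7225842 counts per library, of which 7626 to 12640 lay in the members. Nr0b2, the targeted gene, held 104, 59 and 85 counts in the wild type libraries and 29, 36 and 77 in the knockout libraries. It fell by 0.81 ± 0.25 on the log2 scale (SE, by limma voom; Benjamini-Hochberg adjusted p = 0.0442), and the call was lost without any 1 of the wild type libraries or without knockout library 1 or 2 (adjusted p from 0.0549 to 0.123). Mitochondrially encoded genes took 10.2% ± 0.0617 of wild type counts and 6.50% ± 0.753 of knockout counts (SD, n = 3 each), with no overlap. Most of these counts lay in 1 uncapped RNA, the large mitochondrial rRNA mt-Rnr2. It held 534783, 469829 and 557200 counts in the wild type libraries and 287090, 312921 and 366063 in the knockout libraries. Hepatocyte markers, 7 of 7 tested, summed to 77767 to 99679 CPM in wild type against 83316 to 88956 CPM in knockout, where CPM is a count relative to the scaled library total. Markers of Kupffer cells (7 of 7 tested) summed to 334 to 397 CPM in wild type against 327 to 509 in knockout, those of stellate cells (7 of 7) to 312 to 341 and 162 to 346, and those of sinusoidal endothelium (7 of 7) to 472 to 523 and 330 to 524. None of the 8 lymphocyte and neutrophil markers reached the filter (2.29 to 3.20 CPM summed in any library), and none of the markers was at 0 in all libraries. Cholangiocyte markers (3 of 6 tested) summed to 47.0 to 50.7 and 31.3 to 62.4 CPM, and erythroid markers (3 of 5) to 112 to 132 and 111 to 142 CPM. In each of these lists the groups overlapped. Knockout library 1 was the lowest of all libraries in the Kupffer, stellate, endothelial and cholangiocyte sums. It was at 327 CPM for Kupffer markers (334 to 509 in the other 5) and 162 CPM for stellate markers (312 to 346). Endothelial markers summed there to 330 CPM (472 to 524) and cholangiocyte markers to 31.3 CPM (38.8 to 62.4). Single markers passed in 3 of the lists: C1qa of Kupffer cells and Lyve1 of endothelium rose, by 0.73 ± 0.17 and 0.82 ± 0.22, and Tat of hepatocytes fell by 0.35 ± 0.10 (limma voom, adjusted p = 0.0118, 0.0244 and 0.0284). The C1qa call was lost without wild type library 3 (adjusted p = 0.0811), that of Lyve1 without wild type library 2 or 3 or knockout library 2 or 3 (0.0522 to 0.0854), and that of Tat without any 1 library (0.0504 to 0.0992). The endothelial list did not move as 1: Kdr, Clec4g and Stab2 were lower in every knockout library than in every wild type library, by −0.42, −0.40 and −0.30, without passing, and the median of the list was −0.19. The part of cell composition in the results was not tested. In bulk tissue, fewer cells of a type and less RNA per cell cannot be told apart.

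Mitoribosomal protein genes as a set lay at almost the same level in both genotypes. Of the 75 members, 72 had enough counts to be tested, which required 1.83 CPM in at least 3 libraries. A gene passed the threshold at an adjusted p under 0.05 over all 11794 genes tested. Among the members 6 rose, 4 fell and 62 did not pass. Without knockout library 1, which had the lowest stellate and endothelial marker sums, 5 rose and 0 fell (1065 genes called in all). The count that fell was also 0 without wild type library 3 (620 genes called in all) or knockout library 3 (1419). It was 1 when wild type library 2 was removed (1156) and 2 when knockout library 2 was (1163). It was 5 when wild type library 1 was left out (1567). With every library in the fit, 1713 genes were called, so calls were lost across the whole table in these fits and not only among the members. Members that rose numbered 4 when wild type library 3 or knockout library 2 was removed. Across all genes tested 14.5% passed, 7.58% rising and 6.94% falling, so the members' 13.9% is close to the share of all genes. The median log2 difference, knockout minus wild type, was 0.018 over the members and −0.0064 over all genes. Differences ran from −0.77 for Mrpl47 to 1.41 for Mrpl4, with an interquartile range from −0.10 to 0.20. For 59 of 72 members (81.9%) the difference was within 0.5 either way, against 74.1% of all genes and 74.9% of other tested genes within the members' CPM range. The share was 79.5% for nuclear-encoded respiratory chain subunits, 81.25% for the 7 related lists described below and 69.0% for cytosolic ribosomal protein genes, so it is not particular to the members. The 95% interval of the difference lay within 1 either way for 63 members, so for those a change of 2-fold is outside it.

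**Figure D1:**
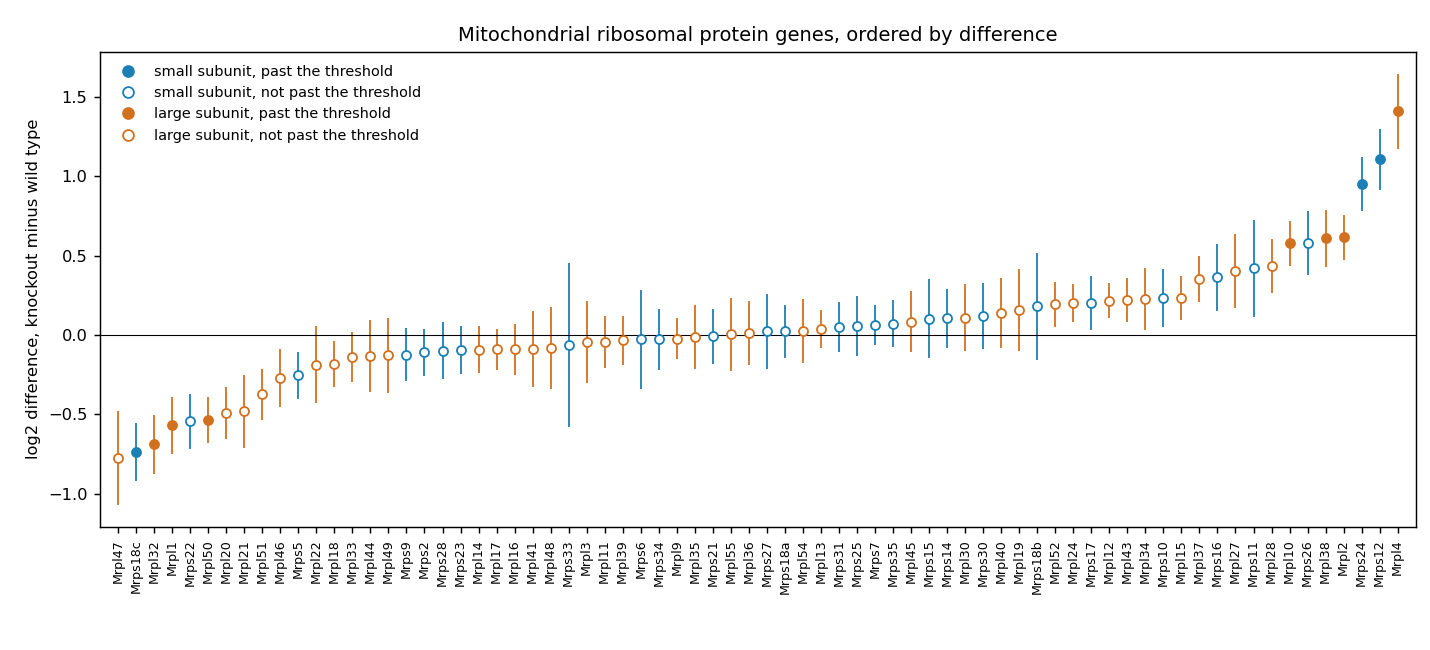
Log2 difference (knockout minus wild type, limma voom) of each of the 72 members tested, ordered by size, with bars of 1 SE; blue is the small and orange the large subunit, and filled points passed the threshold. Most points lie near 0, with 6 filled points toward the upper end up to Mrpl4 at 1.41 and 4 toward the lower end. The lowest point, Mrpl47, is open, and the open points of Mrps22 and Mrps26 lie among the filled ones.

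Of the 28 small subunit genes tested, 2 rose (Mrps12 and Mrps24), 1 fell (Mrps18c) and 25 did not pass. Of the 44 large subunit genes tested, 4 rose (Mrpl4, Mrpl2, Mrpl38 and Mrpl10), 3 fell (Mrpl32, Mrpl1 and Mrpl50) and 37 did not pass. These counts are 10.7% and 15.9% of the genes tested, beside 14.5% of all genes, and the difference between the subunits was not tested. The median log2 difference was 0.054 for the small and −0.018 for the large subunit. Without 1 library the median of the large subunit ran from −0.037 to 0.032. It was above 0 without wild type library 1 or 2 or knockout library 1 or 2. The symbols do not fully match the structure of the mammalian mitoribosome, which places the products of Mrps18a and Mrps30 in the large subunit and does not contain that of Mrps36. With these moved, 2 of 26 small subunit genes rose and 1 fell, and 4 of 46 large subunit genes rose and 3 fell, with medians of 0.054 and −0.004.

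**Figure D2:**
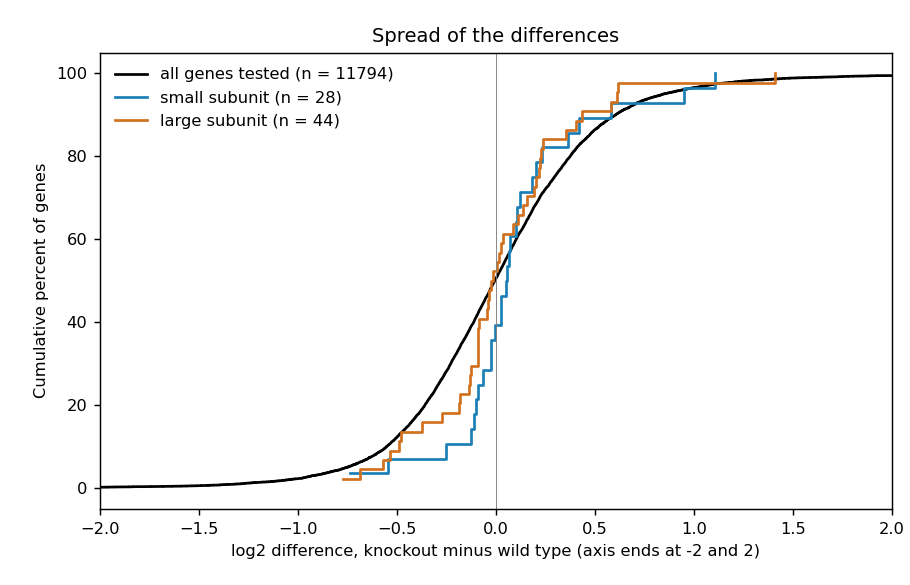
Cumulative percent of genes (vertical) against the log2 difference, knockout minus wild type (horizontal, with the axis ended at 2 either side of 0), for all 11794 genes tested (black), the 28 small subunit genes (blue) and the 44 large subunit genes (orange). Both subunits cross the middle of the scale near 0 and rise more steeply there than the curve of all genes.

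Summed over its members, each subunit had nearly the same level in every library. The small subunit genes summed to 530, 561 and 532 CPM in the wild type libraries and to 564, 560.4 and 561 CPM in the knockout libraries. The large subunit genes summed to 1102, 1141 and 1105 CPM in wild type against 1177, 1143 and 1136 CPM in knockout. In both subunits the second wild type library reached into the range of the knockout. The sum over all members was 1657 ± 39.0 CPM in wild type against 1714 ± 24.1 CPM in knockout (SD, n = 3 each), a log2 ratio of 0.05. The ratio of large to small subunit sums was 2.08, 2.03 and 2.08 in wild type and 2.09, 2.04 and 2.02 in knockout. Its mean was 2.06 ± 0.0246 in wild type (SD, n = 3), and the log2 ratio of the knockout mean to it was −0.0087. The libraries of 1 genotype differed among themselves by more than that.

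As a plain share of counts, the members took 0.164% to 0.168% in wild type and 0.170% to 0.175% in knockout, which do not overlap. That share has the mitochondrially encoded counts in its denominator, and these, mostly of the large rRNA mt-Rnr2, were lower in the knockout. With the mitochondrially encoded genes left out of the totals and no scaling factor, the sums were 1839, 1830 and 1865 CPM in wild type against 1827, 1821 and 1854 CPM in knockout, which do overlap. This form changes 2 choices at once, and its log2 ratio was −0.0084, against 0.0503 for the plain share. With the mitochondrially encoded genes left out and the scaling factors kept, the log2 ratio of the sums was 0.0479, close to the 0.0488 with all genes.

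**Figure D3:**
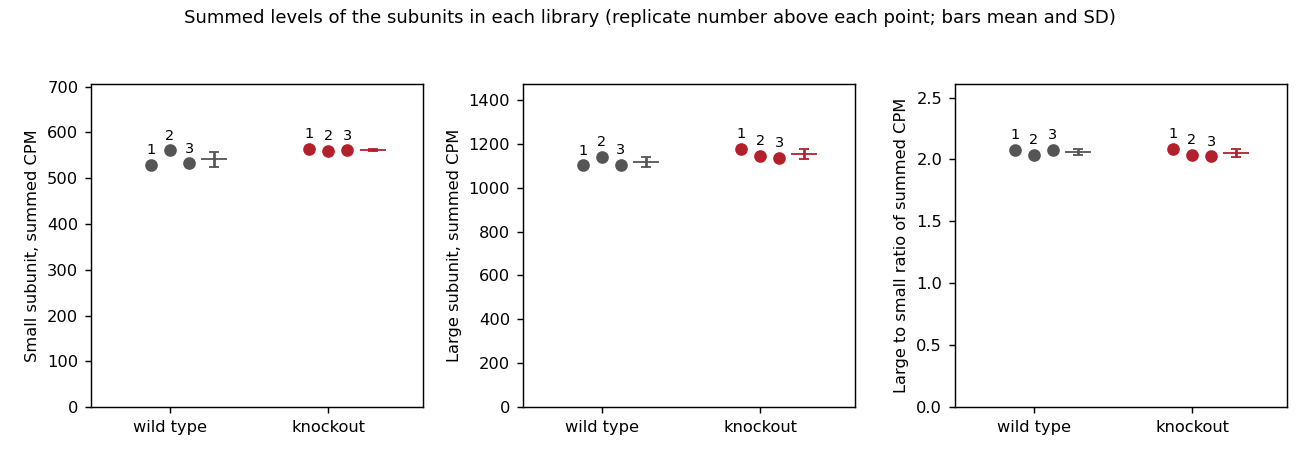
Summed CPM of the small subunit genes (left), of the large subunit genes (middle) and their ratio (right) in each of the 6 libraries, with the replicate number above each point and bars for mean and SD (n = 3). The groups overlap in all 3 panels, and the ratio stays between 2.02 and 2.09.

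Among the small subunit proteins, Mrps12 and Mrps24 rose. Mrps12 (ENSMUSG00000045948; mm9 chr7:29524661-29526809, minus strand) encodes the counterpart of a bacterial protein of the decoding centre. Its level was 10.1, 9.56 and 10.8 CPM in wild type against 21.5, 25.1 and 20.3 CPM in knockout. The lowest knockout library was far above the highest wild type library, and the log2 difference was 1.11 ± 0.19 (SE, by limma voom; adjusted p = 0.0026). Mrps24 (ENSMUSG00000020477; mm9 chr11:5603986-5615683, minus strand), the counterpart of a bacterial protein near the mRNA entry site, was at 14.8, 19.1 and 17.6 CPM in wild type against 38.8, 30.04 and 31.5 CPM in knockout. The groups were again far apart, with a log2 difference of 0.95 ± 0.17 (limma voom, adjusted p = 0.0032). The span of Mrps24 overlaps that of Urgcp over 2264 bases on the same strand, so reads there could belong to either gene. Urgcp itself differed by 0.14 ± 0.15 and did not pass (limma voom, adjusted p = 0.565). Both Mrps12 and Mrps24 passed in every one of the 6 fits with 1 library removed.

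Mrps18c fell. It is 1 of 3 mammalian paralogs of a bacterial small subunit protein. Its level (ENSMUSG00000016833; mm9 chr5:101227646-101233490, plus strand) was 24.6, 29.3 and 31.8 CPM in wild type against 14.2, 21.0 and 16.4 CPM in knockout. All knockout libraries lay below all wild type libraries, by −0.74 ± 0.18 on the log2 scale (SE, by limma voom; adjusted p = 0.0171). The call was lost without wild type library 2 or 3 or knockout library 1 or 3 (adjusted p from 0.0504 to 0.0905). The paralogs did not pass: Mrps18a differed by 0.02 ± 0.17 (24.2 ± 2.55 CPM in wild type against 24.7 ± 4.24 in knockout). Mrps18b differed by 0.18 ± 0.34, on 21 to 32 counts per library, and its 95% interval ran from −0.54 to 0.91.

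The other small subunit genes did not pass. Mrps22, at −0.54 ± 0.17 with an adjusted p of 0.051 (limma voom), lay just outside the threshold with groups that did not overlap. Mrps26, which has no bacterial counterpart, was at 11.3 ± 2.37 CPM in wild type against 16.3 ± 0.528 CPM in knockout, a difference of 0.58 ± 0.20 (limma voom, adjusted p = 0.071). Mrps7, which binds the head of the small subunit rRNA, was the most abundant small subunit gene per length, at 60.1 ± 7.12 CPM in wild type against 62.6 ± 4.61 CPM in knockout (SD, n = 3 each). Its 95% interval of −0.21 to 0.34 leaves out a change of 1.5-fold. Mrps16 and Mrps34 were next per length, with log2 differences of 0.36 ± 0.21 and −0.03 ± 0.19. Mrps30 differed by 0.12 ± 0.21. Mrps36, whose product has since been assigned to the oxoglutarate dehydrogenase complex, had 2 to 5 counts per library and was not tested.

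Among the large subunit proteins, Mrpl4 had the largest increase. Its product (ENSMUSG00000003299; mm9 chr9:20807181-20813279, plus strand) lines part of the exit tunnel for the new peptide. Its level was 8.87, 9.15 and 6.67 CPM in wild type against 27.9, 18.1 and 20.8 CPM in knockout. All knockout libraries lay well above all wild type libraries, and the log2 difference was 1.41 ± 0.24 (SE, by limma voom; adjusted p = 0.0021). Mrpl2 (ENSMUSG00000002767; mm9 chr17:46783178-46787088, plus strand), whose product lies near the peptidyl transferase centre, was at 30.4, 25.2 and 30.5 CPM in wild type against 46.8, 45.9 and 40.8 CPM in knockout. The groups were apart, with a log2 difference of 0.62 ± 0.14 (limma voom, adjusted p = 0.0112). Mrpl4 and Mrpl2 also passed in all 6 fits with 1 library removed.

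Mrpl10 and Mrpl38 rose, with calls that were lost when some single libraries were removed. Mrpl10, which forms the base of the stalk that recruits translation factors, was at 23.5, 21.8 and 24.1 CPM in wild type against 33.3, 37.3 and 33.8 CPM in knockout. Its difference was 0.58 ± 0.14 (SE, by limma voom; adjusted p = 0.0160), and the call was lost without wild type library 3 (adjusted p = 0.0577) or knockout library 2 (adjusted p = 0.0529). Mrpl12, which sits on that stalk base, was at 61.2, 59.9 and 55.1 CPM in wild type against 68.3, 67.3 and 68.7 CPM in knockout. Its groups did not overlap either, and its difference of 0.22 ± 0.11 did not pass (limma voom, adjusted p = 0.206). Mrpl38, a protein of the central protuberance with no bacterial counterpart, went from 13.1 ± 1.196 to 20.1 ± 2.02 CPM (SD, n = 3 each). Its difference was 0.61 ± 0.18 (limma voom, adjusted p = 0.0384), and the call held only without wild type library 1 (adjusted p from 0.0579 to 0.142 in the other 5 fits).

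Mrpl32, Mrpl50 and Mrpl1 fell, and none of these calls held in all fits with 1 library removed. Mrpl32, whose precursor is cut by an inner membrane protease before it joins the ribosome, was at 17.4, 21.4 and 20.6 CPM in wild type against 11.9, 13.2 and 11.7 CPM in knockout. The groups were apart by −0.69 ± 0.18 (SE, by limma voom; adjusted p = 0.0248), and the call held only without wild type library 1 (adjusted p from 0.0501 to 0.0944 in the others). Mrpl50, a mitochondrion-specific protein, was at 39.4, 35.5 and 44.6 CPM in wild type against 25.8, 27.9 and 28.5 CPM in knockout. Its difference was −0.54 ± 0.14 (limma voom, adjusted p = 0.0243), with the call lost without wild type library 3 or any 1 of the knockout libraries (adjusted p from 0.0509 to 0.112). Mrpl1, the protein of the mobile stalk beside the exit site for tRNA, was at 26.3, 37.8 and 37.8 CPM in wild type against 23.5, 24.9 and 20.1 CPM in knockout. The lowest wild type library was close to the highest knockout library, and the difference of −0.57 ± 0.18 (limma voom, adjusted p = 0.0487) passed otherwise only without wild type library 1 (adjusted p from 0.0663 to 0.194 in the others).

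**Figure D4:**
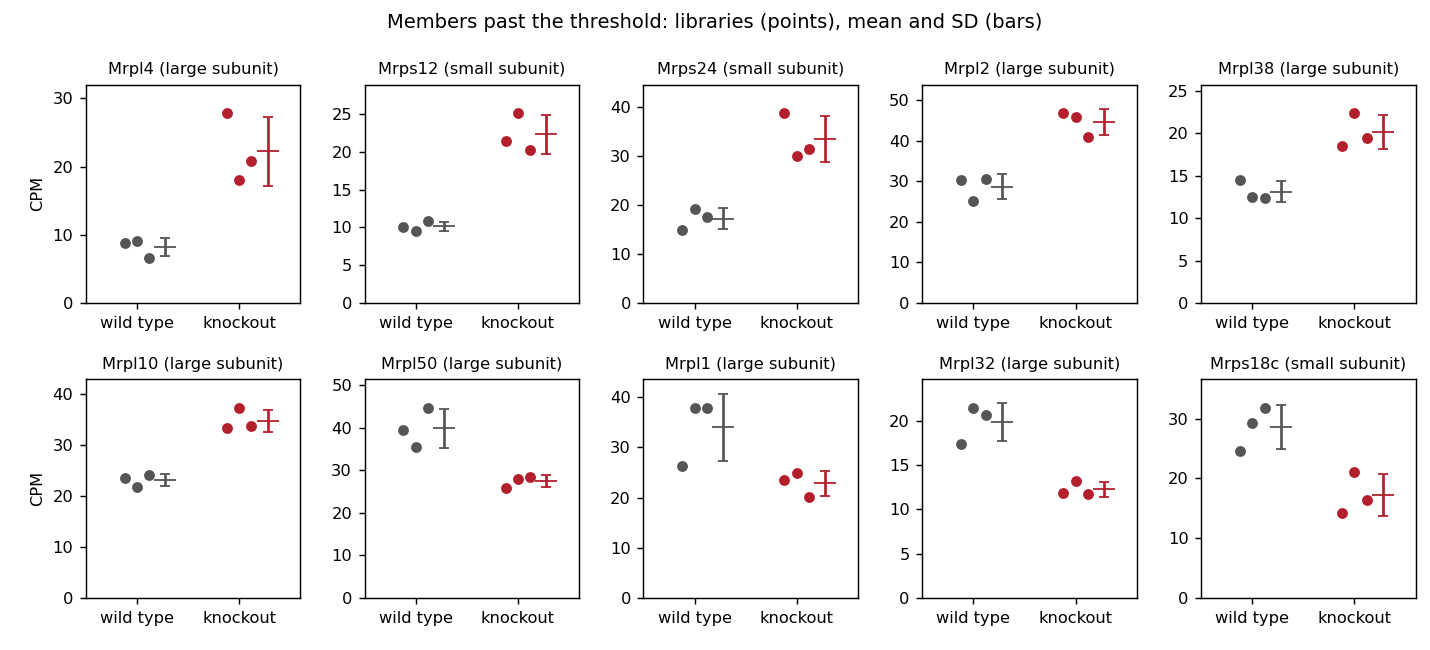
CPM of the 10 members past the threshold in each library (points; grey wild type, red knockout), with bars for mean and SD (n = 3), ordered by log2 difference from Mrpl4 to Mrps18c; each axis starts at 0. In every panel the points of the groups are apart, most clearly for Mrpl4, Mrps12 and Mrps24.

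The remaining large subunit genes include the most abundant members. Per length, as mean CPM per kilobase of the counted region, Mrpl52 was highest at 90.8, followed by Mrpl13 at 55.2, Mrpl14 at 47.9 and Mrpl12 at 47.6. None of them passed: Mrpl52, a mitochondrion-specific protein, differed by 0.19 ± 0.14, Mrpl13 by 0.04 ± 0.12 and Mrpl14, which lies at the interface of the subunits, by −0.09 ± 0.15. Mrpl45, which anchors the ribosome to the inner membrane, was at 19.7 ± 3.91 CPM in wild type against 20.2 ± 2.20 CPM in knockout (SD, n = 3 each). Mrpl47 had the lowest difference of any member, −0.77 ± 0.30, but its groups overlapped, with 9.21, 11.02 and 13.97 CPM in wild type against 5.71, 10.6 and 5.10 CPM in knockout (limma voom, adjusted p = 0.095). Without knockout library 2 it passed, at −1.07 (adjusted p = 0.0472). Mrpl20 lay just outside the threshold at −0.49 ± 0.16 (limma voom, adjusted p = 0.060). Mrpl23 held 3 counts in 1 library and Mrpl53 held 3 counts in 2 libraries, so neither was tested.

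**Figure D5:**
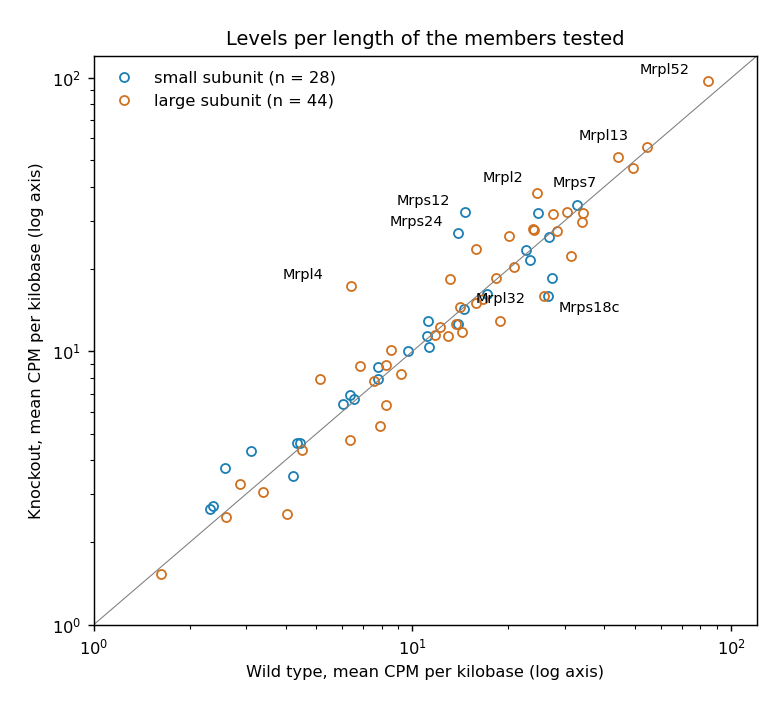
Mean CPM per kilobase of the 72 members tested, wild type on the horizontal and knockout on the vertical axis (both log axes), with the line of equal levels; blue is the small and orange the large subunit. The members stay in nearly the same order of level in both genotypes, with Mrpl52 highest, and Mrpl4, Mrps12 and Mrps24 stand above the line.

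Members whose groups did not overlap made up about the same share as in the whole table. Of the 72 members, 11 were higher in every knockout library than in every wild type library and 11 were lower, 30.6% in all. Over all genes tested these shares were 17.2% higher and 17.9% lower, 35.1% in all. The small subunit had 3 such genes in each direction (Mrps12, Mrps24 and Mrps26 higher; Mrps18c, Mrps22 and Mrps5 lower) and the large subunit 8 in each direction, which is 21.4% of the small and 36.4% of the large subunit genes tested. By known homology, members with a bacterial counterpart gave 5 that rose and 3 that fell of 47 tested (17.0%), and members without gave 1 of each (Mrpl38 and Mrpl50) of 25 (8.0%), beside 14.5% of all genes. The difference between these shares was not tested. Their medians were 0.013 and 0.023.

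Many mitoribosomal genes lie head to head with another gene, and after the values had been seen the neighbours were looked up. Counting genes on opposite strands whose starts in the mm9 table are at most 1000 bases apart, overlap included, 32 members lay in 31 such pairs. Both genes were tested in 26 pairs, and both passed in 3, always in the same direction. The share of such pairs among head-to-head genes of the whole table was not worked out, so these 3 have no background beside them. Mrps12 and Sars2, the mitochondrial seryl-tRNA synthetase, have starts 201 bases apart. Sars2 was at 4.26, 6.24 and 5.88 CPM in wild type against 12.1, 10.4 and 11.5 CPM in knockout. It rose by 1.07 ± 0.25 (SE, by limma voom; adjusted p = 0.0140), close to the 1.11 of Mrps12, and the call was lost without wild type library 1 (adjusted p = 0.0516) or 3 (adjusted p = 0.0569). The stretch shown above for Mrps12 is the sequence between these 2 genes in RefSeq.

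Mrpl2 and Klc4, a kinesin light chain, rose together. Klc4 went from 37.7 ± 3.98 to 50.7 ± 2.52 CPM, a difference of 0.43 ± 0.13 (limma voom, adjusted p = 0.0410), with the call lost in 5 of the 6 fits with 1 library removed (all but that without wild type library 2, adjusted p from 0.0543 to 0.169). Mrpl50 and Zfp189, a zinc finger gene, fell together. Zfp189 went from 16.6 ± 3.90 to 8.87 ± 2.32 CPM, a difference of −0.91 ± 0.26 (limma voom, adjusted p = 0.0304), with the call lost without wild type library 2 or 3 or knockout library 2 or 3 (adjusted p from 0.0826 to 0.131). In each of the other pairs with both genes tested, at most 1 gene passed. Psma2, a proteasome subunit beside Mrpl32, was at 57.0 ± 10.4 and 52.9 ± 5.98 CPM, and Helq, a DNA helicase beside Mrps18c, at 3.73 ± 0.624 and 4.34 ± 1.38 CPM, and neither passed. Wdfy1, beside Mrpl44, rose from 12.5 ± 1.39 to 37.9 ± 3.55 CPM (1.59 ± 0.17; limma voom, adjusted p = 0.00013), while Mrpl44 differed by −0.13 ± 0.23. Ndufb5 and Rab6, whose spans overlap those of Mrpl47 and Mrpl48, fell by 0.38 ± 0.12 and 0.48 ± 0.15 (limma voom, adjusted p = 0.0470 and 0.0404). Both calls were lost in 5 of the 6 fits with 1 library removed. Mrpl47 and Mrpl48 differed by −0.77 and −0.08 and did not pass. Signs matched in 12 of the 26 pairs.

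Where spans overlap, reads could have been counted for either gene, since the treatment of strand is, in the sources used here, not given. The spans of 25 members overlapped another gene of the table. Among the 48 tested members without any overlap, 4 rose and 4 fell (16.7%, beside 14.5% of all genes), and the median was 0.020. Of the 24 tested members with an overlap, 2 rose and 0 fell (8.33%). The difference between these shares was not tested. The only locus over Mrpl2, CT030702.1, held 0.208 CPM in wild type against 0.242 CPM in knockout. Mrps11 and Mrpl46 overlap each other over 413 bases and differed by 0.42 ± 0.30 and −0.27 ± 0.18, and neither passed. A copy of Mrpl48 is listed as a gene of its own, Mrpl48-ps, so values of Mrpl48 are uncertain.

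Promoter windows of RefSeq, from 250 bases before to 50 after the start, were matched for 66 of the 75 members. They were searched on both strands for motifs of factors known for nuclear genes of mitochondrial proteins: NRF1 (GCGC, any 1 base, then TGCGC), ETS factors such as GABP (CCGGAAGT) and YY1 (AAGATGGCG), with the E-box (CACGTG) that MYC and related factors bind. The NRF1 motif was in 12 of 66 members (18.2%), in 11.97% of the genes tested and in 5.19% of all genes of the RefSeq table. The ETS motif was also in 12 members (18.2%), against 9.11% and 4.31%, and the YY1 motif in 7 (10.6%), against 3.80% and 1.64%. The E-box was in 5 members (7.58%), against 12.1% and 8.09%. At least 1 of the first 3 motifs was in 29 members (43.9%), against 22.9% of the 7684 tested genes with a window and 10.3% of all 27025. Mrpl4, the largest increase, and Mrpl38 had no window and were not searched. Of the members that rose and had a window, Mrps24 held the YY1 motif, outside the 180 bases just before its start. Mrpl2 held the E-box shown above, while Mrps12 and Mrpl10 held none of the 4. Of those that fell, Mrpl32 held the NRF1 motif and Mrps18c the ETS motif and E-box shown above, and Mrpl1 and Mrpl50 held none. In the runs shown no motif overlaps another, and these matches describe letters and do not show binding.

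The factors themselves were among 9 transcription factors of mitochondrial biogenesis, of which 2 rose and 1 fell. That is 33.3% of a list of only 9 genes, beside 14.5% of all genes. Myc was at 16.7, 2.49 and 4.13 CPM in wild type against 37.5, 26.1 and 24.8 CPM in knockout. Its first wild type library was well above the other 2 and still below the knockout, and the difference was 2.26 ± 0.43 (SE, by limma voom; adjusted p = 0.0043, and 0.061 without wild type library 3). Without wild type library 1 it was 3.05, and over the 6 fits with 1 library removed it ran from 1.79 to 3.05. Esrra, an estrogen-related receptor, rose by 0.73 ± 0.15 (limma voom, adjusted p = 0.0073, and 0.052 without wild type library 3). Gabpa, the DNA-binding subunit of GABP, was at 76.3, 84.2 and 75.9 CPM in wild type against 46.4, 52.6 and 59.2 CPM in knockout. It fell by 0.57 ± 0.12 (limma voom, adjusted p = 0.0093) and passed in all 6 fits with 1 library removed. Nrf1, whose motif was searched first, differed by −0.45 ± 0.19 (limma voom, adjusted p = 0.123), and Gabpb1, the partner of Gabpa, by −0.70 ± 0.26 (limma voom, adjusted p = 0.0827). Neither passed, and both were lower in every knockout library than in every wild type library. Yy1 differed by −0.13 ± 0.17 and did not pass.

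The partners of the mitoribosomal proteins were followed as the rRNAs and in 6 further lists. The rRNAs of the mitoribosome, which are transcribed inside mitochondria and carry no cap of the kind selected, were both lower. The large rRNA, mt-Rnr2, was at 91225, 97665 and 88480 CPM in wild type against 65561, 61443 and 49140.0 CPM in knockout. It fell by 0.66 ± 0.11 (SE, by limma voom; adjusted p = 0.0021). The small rRNA, mt-Rnr1, fell by 0.62 ± 0.14 (limma voom, adjusted p = 0.0117, and 0.0778 without wild type library 3). How far the cap selection removed uncapped RNA to the same degree in each library was not tested.

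Of 9 listed symbols of mitoribosomal proteins outside the naming pattern, 7 had counts, and of these 1 rose and 1 fell. Mrp63, a large subunit protein, was at 14.5, 13.3 and 9.53 CPM in wild type against 20.6, 19.05 and 19.6 CPM in knockout, and rose by 0.69 ± 0.20 (limma voom, adjusted p = 0.0330). Ptcd3, a small subunit protein, fell from 30.7 ± 1.76 to 21.9 ± 2.28 CPM (−0.49 ± 0.15; limma voom, adjusted p = 0.0434). The call of Mrp63 held only without wild type library 1 and that of Ptcd3 in none of the fits with 1 library removed (adjusted p up to 0.170 and 0.125). Aurkaip1, the most abundant of the list, was at 38.7 ± 2.88 and 41.9 ± 0.670 CPM.

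For assembly of the mitoribosome and modification of its rRNA, 28 symbols were looked up and 17 had counts. None of these 17 genes passed in limma voom, with 4 at an unadjusted p under 0.05. The most abundant, the RNA helicase Dhx30, was at 30.03 ± 6.62 CPM in wild type against 38.9 ± 5.84 CPM in knockout. Of 13 translation factors and mRNA-binding proteins, 2 fell. Mtif2, the initiation factor that brings the first tRNA, was at 49.3, 51.6 and 54.1 CPM in wild type against 37.0, 35.3 and 37.6 CPM in knockout. The groups were well apart, at −0.49 ± 0.12 (limma voom, adjusted p = 0.0173), with the call lost without wild type library 3 (adjusted p = 0.0756) or knockout library 2 (adjusted p = 0.0644). Guf1, an elongation factor, fell by 0.71 ± 0.22 (limma voom, adjusted p = 0.0462), which held only without wild type library 1 (adjusted p from 0.0578 to 0.205 in the others). Lrpprc, which stabilises mitochondrial mRNAs, was the most abundant and did not pass (−0.21 ± 0.10).

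Of 16 tested aminoacyl-tRNA synthetases of mitochondria 2 rose, Sars2 and Lars2. Lars2 was at 1454, 1944 and 1172 CPM in wild type against 5329.8, 5547 and 3421 CPM in knockout, a difference of 1.64 ± 0.19 (limma voom, adjusted p = 0.00017). The next most abundant of the list, Iars2, was at a mean of 76.8 CPM in wild type against 79.7 CPM in knockout, and what the Lars2 reads represent was not tested. Of 9 genes for replication and transcription of mitochondrial DNA, Tfam fell by 0.45 ± 0.13 (limma voom, adjusted p = 0.0377), a call lost in all 6 fits with 1 library removed (adjusted p from 0.0663 to 0.151). Polg, the most abundant of that list, was at 49.4 ± 4.70 and 56.4 ± 5.75 CPM.

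Of 9 mitochondrial chaperones and proteases, 1 rose and 2 fell. Clpp, a matrix protease subunit, rose by 0.68 ± 0.17 (limma voom, adjusted p = 0.0156), lost without wild type library 3 (adjusted p = 0.103) or knockout library 1 (adjusted p = 0.0531). Yme1l1, an inner membrane protease, fell from 172 ± 10.3 to 112 ± 4.10 CPM (−0.61 ± 0.10; limma voom, adjusted p = 0.0020) and passed in all 6 fits with 1 library removed. Hspa9, the import motor chaperone, fell by 0.36 ± 0.10 (limma voom, adjusted p = 0.0256), lost without wild type library 3 or knockout library 1 or 2 (adjusted p from 0.0911 to 0.113). Clpx, its list's most abundant gene that did not pass, was at 215 ± 44.5 and 273 ± 34.2 CPM. Over the 7 lists together, 102 symbols were looked up and 81 had counts under that name. Of the 80 genes tested, 6 rose and 7 fell, with a median of 0.106. These are 7.50% and 8.75%, near the 7.58% and 6.94% of all genes. By list, the share that passed ran from 0% for assembly to 33.3% for the transcription factors and for the chaperones and proteases. Each list had only 7 to 17 tested genes, and 14.5% of all genes passed.

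The spread of the members' differences was set beside that of other gene sets. The interquartile range of the members' differences covered 0.303 on the log2 scale, against 0.444 for 73 tested nuclear-encoded respiratory chain subunits, 0.659 for 71 tested genes of the cytosolic ribosome and 0.586 for all genes. Among the smaller lists it was 0.241 for the chaperones and proteases, below that of the members, 0.324 for the aminoacyl-tRNA synthetases and 0.384 for the translation factors. It was wider in the other lists, at 0.466 for the mitoribosomal proteins outside the naming pattern and 0.507 for replication and transcription of mitochondrial DNA. For assembly it was 0.523 and for the transcription factors 0.902. The respiratory chain list had 12 genes that rose and 8 that fell (27.4%), and the cytosolic list 7 that rose and 2 that fell (12.7%). Median levels per length were 13.1 CPM per kilobase for the members and 78.6 for the respiratory chain. Cytosolic ribosomal protein genes, at 7.46, have many near-identical copies that can split reads. Whether the sets differ was not tested.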

How the data were processed

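Cap-selected liver RNA of 3 wild type and 3 knockout mice was read from both ends. Per the submitters' processing notes, mm9 was the build and Novoalign 2.05.33 the aligner. How reads were counted, and from which annotation, is, in the sources used here, not given. For each gene and library, the authors deposited whole-number read counts, with RPKM values, a log2 ratio and test scores for the pooled groups. Of counts from 1 to 19, 61.8% were even, so counts may not be independent fragments. Of 33495 rows, 13901 had empty cells and were left out, 4840 of them as lines that end early. For that reason these columns carry a general unit in the records of this work, and limma's voom was used and no negative binomial model.

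Trimmed means of M values gave the scaling factors of the libraries (0.965 to 1.03). After adding 0.5 to the counts, log2 CPM with precision weights entered limma 3.58.1 in R 4.3.3 for genes with at least 1.83 CPM (10 counts at the median size) in 3 libraries and 15 counts in all, with genotype as the only term. P-values measure the spread between these 6 animals' libraries. Tested on data simulated from these mean levels and library sizes (11794 genes), the fit called 16 of 100 changes of 1.5-fold, 67 of 100 of 2-fold and 4 of 11594 unchanged genes. The simulation used a fixed dispersion not estimated from these data, and its changed genes were far fewer than the 1713 that passed here. The authors' deposited log2 ratio had the same sign in 70 of the 72 members tested. Both mitochondrial rRNAs are listed under clone names and were named by Ensembl identifier. Python 3.11.15, pandas 2.3.3 and matplotlib 3.10.9 were used. The members and the lists were chosen with earlier results of these data known. Named were all members past the threshold, the 3 highest per length and the largest difference that did not pass in each subunit, 8 fixed names and, in each related list, up to 3 passing genes and the most abundant other. Mrps22, Mrpl20, Mrps5, Mrps11, Mrpl44, Mrpl46, Iars2, Nrf1, Gabpb1, the single cell type markers and the neighbouring genes were added after their values were seen. Alternatives were other scalings, filters, variance models, a replicate block and each library left out, and 2 added after seeing the data: members without an overlapping gene, and totals without mitochondrially encoded genes or scaling.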

Additional observations from a re-analysis of the deposited data

How the results depend on the processing

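Mrpl4, Mrps12, Mrps24 and Mrpl2 passed in every fit run. All 10 members that passed did so under library totals, median-of-ratios factors, quantile normalization, totals without mitochondrially encoded genes, the stricter filter and robust moderation. Without a low-count filter Mrpl1 and Mrpl38 were lost, and with limma trend Mrpl1. The small subunit genes that fell numbered 2 in place of 1 with quantile normalization, the stricter filter, limma trend, robust moderation and the replicate block, with Mrps22 added. Related genes that fell numbered 4 in place of 7 without the filter. The summed CPM gave a log2 ratio of −0.0084 without mitochondrially encoded genes and scaling, an alternative added after seeing the data. Among the 48 tested members with no overlapping gene, also added, 4 rose and 4 fell (16.7%, beside 14.5% of all genes). Where not stated, the cause was not tested.

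Leaving out 1 library, the genes called ran from 620 (without wild type library 3) to 1567, members that rose from 4 to 6 and fell from 0 to 5, small subunit genes that rose stayed at 2 and fell from 0 to 2, large subunit genes that rose from 2 to 4 and fell from 0 to 3, and related genes that rose from 1 to 6 and fell from 2 to 5. The medians ran from −0.0095 to 0.051 (members), 0.019 to 0.087 (small) and −0.037 to 0.032 (large), and the log2 ratio of sums from 0.037 to 0.068. Of the 72 members tested, 30 had differences on both sides of 0 over these fits, none of them past the threshold with all libraries. They include Mrpl44 (−0.35 to 0.033), Mrpl14 (−0.17 to 0.04), Mrps18a (−0.088 to 0.11), Mrpl45 (−0.11 to 0.19), Mrps18b (−0.10 to 0.46), Mrps7 (−0.043 to 0.13) and Mrps34 (−0.088 to 0.017).

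Same-numbered libraries did not deviate together (correlations of −0.019, −0.021 and −0.024), so the numbers were not taken as pairs. With the replicate block 1778 genes and 12 members passed, Mrpl20 and Mrps22 joining the 10. With 4494353 to 7225842 counts per library, 51 of the 75 members held under 200 counts in every library. The simulated recovery of 1.5-fold changes came from few changed genes at a fixed dispersion, so it is not the recovery of this comparison. A gene that did not pass is not thereby shown to be unchanged.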
